A study of Drosophila melanogaster with 2 samples.

Results

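Chromosome 4 of Drosophila melanogaster, the small dot chromosome, carried 536 of the 30000 peaks called for the forkhead transcription factor fd3F in replicate 1. Those 536 peaks were chosen by position alone, as the entries of that list placed on chromosome 4 of build dm6, and no signal value entered the choice. The replicate 3 list held 172 peaks there among 30000, the list called on both replicates together held 401 among 30000, and the list of reproducible peaks held 13 among 3917. Reproducible here means kept by the authors' irreproducible discovery rate (IDR) filter, whose list is made of the pooled peaks of highest signal. Whole embryos aged 8 to 18 h from a transgenic strain gave the chromatin. The transgene codes for fd3F with enhanced green fluorescent protein (eGFP) at its C-terminus, and an anti-GFP antibody was used. The 2 biological replicates, labelled 1 and 3, form 1 group, and both carried the same transgene. The embryos were not sorted, so a peak may come from any cell that makes the fusion protein, and the cell type cannot be told. Sequencing depth is unknown, because the lists hold no read counts.

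fd3F belongs to the forkhead (FOX) family, whose members bind DNA through a winged-helix domain and favour words related to GTAAACA. In the fly it is known from genetics as a regulator of cilium genes in the chordotonal neurons, which are stretch and sound receptors. Chromosome 4 is known for an unusual chromatin state. Its genes lie among many copies of short transposable elements, chiefly INE-1 and the 1360 element, it is bound by heterochromatin protein HP1a along much of its length, and the chromosome-specific protein Pof coats its genes, yet most of those genes are expressed. It does not normally cross over at meiosis. In the assembly used here chromosome 4 was 1348131 bp long, or 1.01% of the assembled length of the 6 arms, with 80 protein-coding genes (0.574% of all). Annotated transposable elements covered 25.1% of its bases, against 4.05 to 7.75% on the other 5 arms, and its GC content was 35.2%, against 41.6 to 42.6%.

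The sequences under the strongest shared peaks are shown as examples. Each is the plus strand of dm6 (RefSeq sequence) up to 100 bp to either side of the replicate 1 summit, with each forkhead word in capitals. A forkhead word has the form NNAAANA, where the leading N is a purine and the other N letters are pyrimidines, and it was searched on both strands, so that GTAAACA is a word and so is its reverse complement. The 6 members of highest signal that overlap a reproducible peak were taken, and the second of them, at Cals, is left out because its summit lies in a 3′ untranslated region.
PlexA peak, chr4:1027200-1027400, between genes: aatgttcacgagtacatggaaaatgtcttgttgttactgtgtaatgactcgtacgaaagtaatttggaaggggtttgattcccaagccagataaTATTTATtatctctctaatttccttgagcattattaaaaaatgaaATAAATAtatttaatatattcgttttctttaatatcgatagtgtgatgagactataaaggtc
gw peak, chr4:660103-660303, in an intron of gw: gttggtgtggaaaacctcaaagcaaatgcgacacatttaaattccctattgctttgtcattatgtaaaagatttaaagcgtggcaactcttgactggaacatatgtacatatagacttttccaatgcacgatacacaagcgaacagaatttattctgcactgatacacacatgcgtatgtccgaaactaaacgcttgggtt
zfh2 peak, chr4:497787-497987, between genes: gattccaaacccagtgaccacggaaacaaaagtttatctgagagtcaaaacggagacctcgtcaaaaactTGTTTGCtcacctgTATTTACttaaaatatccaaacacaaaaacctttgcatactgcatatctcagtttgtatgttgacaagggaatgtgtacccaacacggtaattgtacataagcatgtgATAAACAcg
lgs peak, chr4:424719-424919, between genes: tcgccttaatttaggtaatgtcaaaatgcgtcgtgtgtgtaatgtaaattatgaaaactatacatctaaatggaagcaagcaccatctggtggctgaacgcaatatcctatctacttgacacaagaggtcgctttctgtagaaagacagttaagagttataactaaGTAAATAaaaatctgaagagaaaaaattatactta
Sox102F peak, chr4:807512-807712, in an intron of Sox102F: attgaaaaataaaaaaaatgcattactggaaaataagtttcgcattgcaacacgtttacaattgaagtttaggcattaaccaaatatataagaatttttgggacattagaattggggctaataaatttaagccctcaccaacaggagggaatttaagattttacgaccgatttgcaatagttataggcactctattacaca
The windows of PlexA, zfh2 and lgs held 2, 3 and 1 forkhead words, and those of gw and Sox102F held none. The centre of the nearest word lay 3 bp from the summit at PlexA, 13 bp at zfh2 and 69 bp at lgs. The PlexA window also held TATCGATA, the DNA replication-related element (DRE) of many fly promoters, 75 bp from the summit.

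A further pair of members, picked after the data were seen, is shown as examples only. INE-1 held the summits of 9.71% of the members that overlapped a replicate 3 peak and 9.70% of those that did not. The Pur-alpha peak was in the reproducible list although no replicate 3 peak overlapped it, and the PMCA peak had the highest signal of the members whose summit lay in an INE-1 insertion.
Pur-alpha peak, chr4:558740-558940, in an intron of Pur-alpha: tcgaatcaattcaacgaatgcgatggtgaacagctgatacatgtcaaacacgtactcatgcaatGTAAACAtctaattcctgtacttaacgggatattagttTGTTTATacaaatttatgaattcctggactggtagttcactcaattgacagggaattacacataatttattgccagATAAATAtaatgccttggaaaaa
PMCA peak, chr4:357593-357793, in an INE-1 copy within an intron of PMCA: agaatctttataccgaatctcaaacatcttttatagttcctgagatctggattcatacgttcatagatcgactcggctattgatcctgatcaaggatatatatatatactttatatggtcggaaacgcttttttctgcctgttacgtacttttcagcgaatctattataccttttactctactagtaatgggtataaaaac
The Pur-alpha window held 3 forkhead words, the nearest centred 5 bp from the summit, and the stricter word TGTTTAC was among them, read on the minus strand. The PMCA window held none.

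The number of chromosome 4 peaks differed widely between the replicates. Per Mb of assembled sequence there were 397.6 peaks in replicate 1 and 127.6 in replicate 3. In replicate 1 this was above the 5 other arms (206.5 to 243.1 peaks per Mb), and in replicate 3 it was below them (187.9 to 253.9). The ratio of replicate 1 to replicate 3 peaks was 3.12 on chromosome 4 (exact 95% interval 2.62 to 3.72, counting error only) and 0.923 to 1.10 on the other arms. Over the whole lists, the direction of the departure from the other arms was therefore opposite in the replicates. The spread between them (SD 190.9 peaks per Mb, n = 2) leaves no whole-list density of the chromosome that holds for both. Among the 3917 peaks of highest signal in each list, chromosome 4 lay below the other arms in both replicates. It had 11.9 peaks per Mb in replicate 1 (27.7 to 31.3 on the other arms) and 8.16 in replicate 3 (27.5 to 30.3). The pooled list gave 297.4 peaks per Mb, above the other arms (206.2 to 241.6), and the reproducible list gave 9.64, below them (27.7 to 31.2). The pooled and reproducible lists contain both replicates' reads and are not further evidence.

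**Figure D1:**
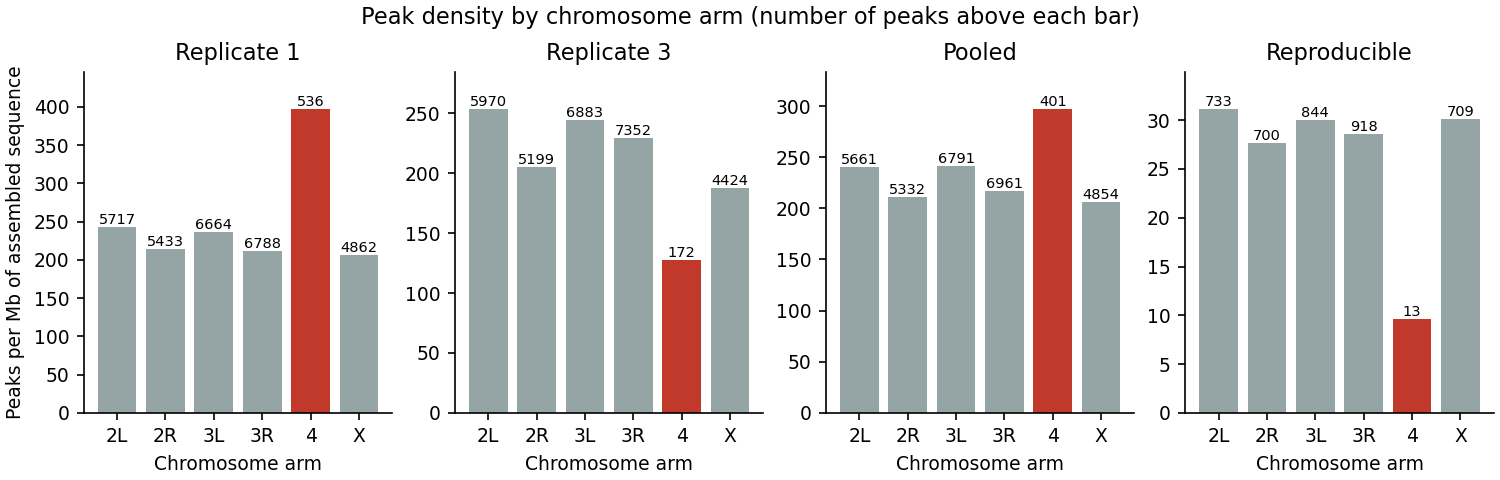
Peaks per Mb of assembled sequence (vertical axis, a separate scale in each panel) on the 6 chromosome arms (horizontal axis) in the 4 lists, with chromosome 4 in red and the number of peaks above each bar. Chromosome 4 stands highest in the replicate 1 and pooled lists and lowest in the replicate 3 and reproducible lists.

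The ratio between the replicates was lower in shorter lists, but the interval of each shorter list also held the whole-list ratio of 3.12. A constant ratio is therefore not excluded. Among the 3917 peaks of highest signal in each list, chromosome 4 had 16 in replicate 1 and 11 in replicate 3, a ratio of 1.45 (95% interval 0.634 to 3.47). Among the best 10000 the numbers were 125 and 48, a ratio of 2.60 (1.85 to 3.71). Among the best 20000 they were 332 and 113, a ratio of 2.94 (2.37 to 3.67). The members were also weaker than the rest of their list in replicate 1. Their median rank was 17000, against 14733.5 to 15269.5 on the other arms, and 165 of them (30.8%) had a q-value of at most 0.05, against 38.3% of all replicate 1 peaks. In replicate 3 the median rank was 15288 and 35 of 172 peaks (20.3%) passed that threshold, against 27.9% of all replicate 3 peaks. The signal, which is the caller's value over the control on the scale of its own list, ran from 18.6 through a median of 26.8 to 255.7 in replicate 1, and from 14.1 through 21.0 to 334.6 in replicate 3. In both lists a few peaks stood far above a long tail of low values.

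**Figure D2:**
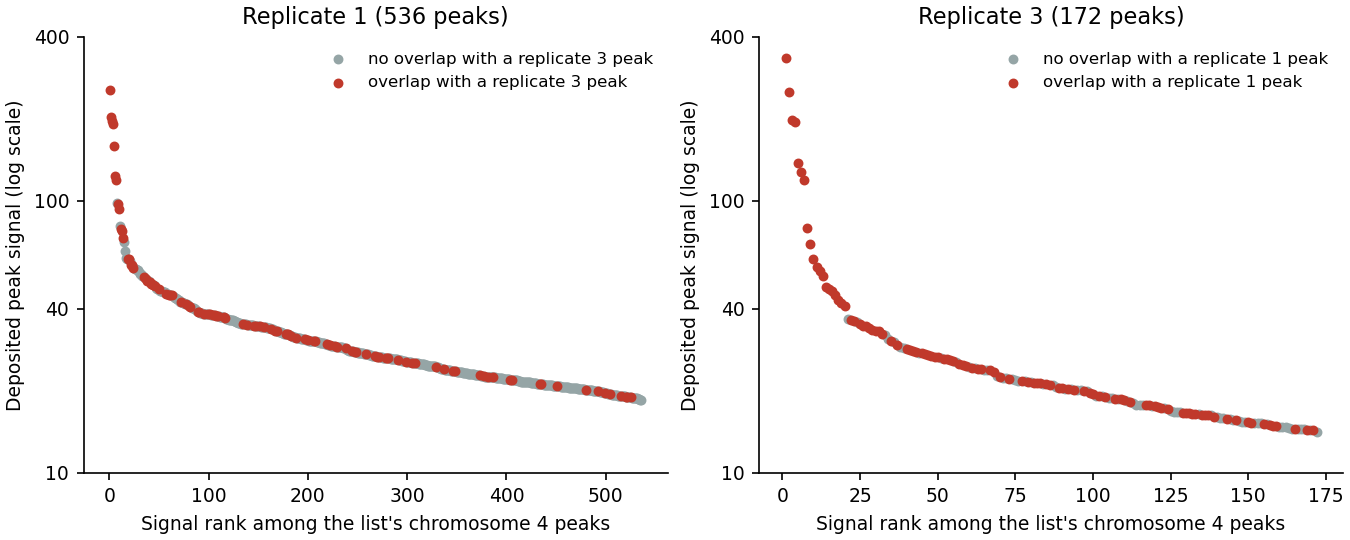
Deposited peak signal (vertical axis, log scale, each list on its own scale) of the 536 replicate 1 peaks and the 172 replicate 3 peaks of chromosome 4 against their signal rank on the chromosome (horizontal axis). Red points overlap a peak of the other replicate by at least 1 bp, and they fill the steep left end of both panels and thin out along the tail of replicate 1.

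The excess in replicate 1 ran along the whole chromosome. All 13 bins of 100 kb held more replicate 1 than replicate 3 peaks, with 17 to 63 in replicate 1 and 2 to 27 in replicate 3. The ratio ran from 1.62 to 9.5, with a median of 3.07. It was lowest at 700 to 800 kb, where 26 and 16 peaks were counted, and highest at 300 to 400 kb, with 38 and 4. Neighbouring summits of chromosome 4 lay a median of 1307 bp apart in replicate 1, within the range of the other arms (1246 to 1524 bp), and 2269 bp apart in replicate 3 (1761.5 to 2283 bp on the other arms). The widest stretch without a summit between neighbours was 40776 bp in replicate 1 and 74886 bp in replicate 3.

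The replicate ratio was also taken by transposable-element content. On the other arms, 79 bins of 100 kb had a transposable-element content within the range of the chromosome 4 bins (15.6 to 43.5%), and together they held 1036 replicate 1 and 1047 replicate 3 peaks, a ratio of 0.989. On chromosome 4 itself the ratio was 2.39 for summits inside annotated elements (79 and 33) and 3.29 for summits outside them (457 and 139). Inside elements of the other arms it was 0.732. The part of transposable-element content in the replicate difference was not tested.

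In replicate 1, transposable elements held fewer summits than their share of the bases, and in replicate 3 the difference was within counting error. In replicate 1, 79 members (14.7%, 95% interval 11.8 to 18.0) had their summit in an element, and in replicate 3 it was 33 of 172 peaks (19.2%, 13.6 to 25.9), where elements cover 25.1% of the bases. INE-1, a short non-autonomous element with 344 annotated copies on the chromosome and 7.31% of its bases, held 52 replicate 1 summits (9.70%, 95% interval 7.33 to 12.5) and 20 replicate 3 summits (11.6%, 7.25 to 17.4), so that its share of the bases lies just below the replicate 1 interval and within that of replicate 3. The 1360 element, with 60 copies and 3.84% of the bases, held 12 and 3. Sequence that the reference marks as repeat (soft-masked) held 128 members (23.9%) and 44 replicate 3 peaks (25.6%), beside 28.1% of the bases. Reads from such repeated copies may map to more than 1 place, so element counts depend on how the authors kept such reads, which is not given in the sources used here. None of the 13 reproducible summits lay in an annotated element.

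Overlap with replicate 3 was rare among the 536 members. Of them, 103 overlapped a replicate 3 peak by at least 1 bp (19.2%, 95% interval 16.0 to 22.8), against 52.2% of all replicate 1 peaks and 51.1 to 54.6% on the other arms. Read the other way, 102 of the 172 replicate 3 peaks overlapped a replicate 1 peak (59.3%), against 51.8% of all replicate 3 peaks and 48.5 to 57.2% on the other arms. The 95% interval of that share (51.6 to 66.7) takes in the share over all replicate 3 peaks. No partner was found for 433 of the members and for 70 of the 172 replicate 3 peaks. A list with more peaks on a chromosome leaves fewer partners per peak in the other list, so these shares are not independent of the counts. Of the members, 335 overlapped a pooled peak (62.5%, against 77.2% of all) and 15 a reproducible peak (2.80%, against 14.7% of all).

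The share with an overlap was also lower within bands of replicate 1 signal rank. Such bands leave the difference in peak numbers between the replicates in place, so they cannot separate the overlap from it. Among members ranked 1 to 3917 in replicate 1, 12 of 16 overlapped a replicate 3 peak (75%), against 97.2% on the other arms. Of the 109 members ranked 3918 to 10000, 33 did (30.3%, against 69.9%). Of the 207 ranked 10001 to 20000, 38 did (18.4%, against 44.3%), and of the 204 below that, 20 did (9.80%, against 33.2%). In each band the 95% interval of chromosome 4 lay below the share of the other arms. In the opposite direction, 11 of the 11 best replicate 3 peaks overlapped a replicate 1 peak, against 97.7% on the other arms. In the lower bands 29 of 37 (78.4%, against 75.5%), 36 of 65 (55.4%, against 41.4%) and 26 of 59 (44.1%, against 29.6%) did. From rank 10001 on, the 95% interval of chromosome 4 lay above the share of the other arms.

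**Figure D3:**
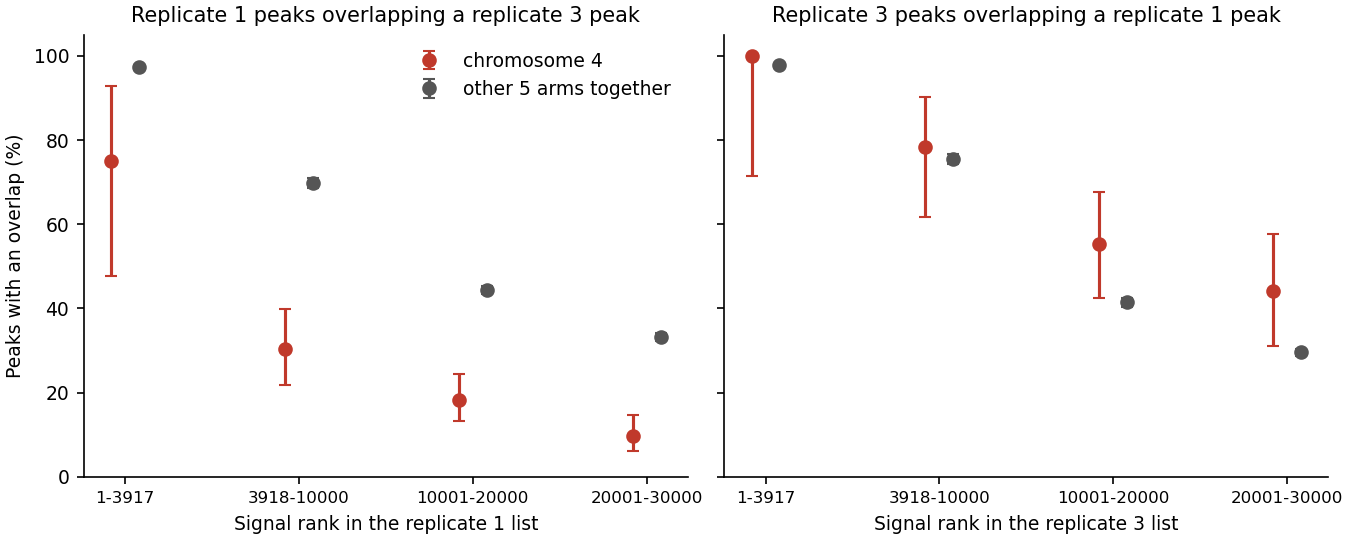
Share of peaks that overlap a peak of the other replicate (vertical axis, percent) by band of signal rank (horizontal axis), for chromosome 4 (red) and the other 5 arms together (grey), with exact 95% intervals. In the left panel the replicate 1 peaks of chromosome 4 fall from 75 to 9.80% and lie below the other arms in all 4 bands. In the right panel the replicate 3 peaks do not lie below them, and from rank 10001 on their intervals lie above.

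Each of the 103 shared members was paired with the overlapping replicate 3 peak of best rank, which need not be the nearest. This gave 93 different replicate 3 peaks. The median distance between paired summits was 101 bp, a distance that the required overlap of the intervals limits. Over the 103 pairs Spearman's rho of the signals was 0.459 and Pearson's r of the log2 signals was 0.746, or 0.674 without the 2 highest pairs. Both signals are relative to a control, and neighbouring pairs share a locus, so these are descriptions. The rank was better in replicate 3 for 49 pairs.

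The strongest chromosome 4 peak of both replicates lay upstream of PlexA, which codes for a semaphorin receptor of axon guidance. Its signal was 255.7 in replicate 1 (rank 415) and 334.6 in replicate 3 (rank 242), and its summits lay 199 and 193 bp before the start site. The peak at Cals, the calsyntenin gene, had a signal of 202.4 in replicate 1 (rank 642) and 194.8 in replicate 3 (rank 675). Its replicate 1 summit lay 9630 bp into the gene, in a 3′ untranslated region just past the end of sv, the Pax2 gene needed for sense organ development. The replicate 3 summit lay inside both Cals and sv, 9661 bp into Cals. The gw peak, at a gene whose GW182 protein acts in microRNA silencing, had 196.1 in replicate 1 (rank 679) and 137.0 in replicate 3 (rank 1226). These peaks ranked among the best 1226 of 30000 in both replicates.

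Of the next 3 peaks, those named by zfh2 and lgs lay between genes, and their names give only the nearest protein-coding start. The peak 3923 bp before zfh2, a zinc-finger homeodomain factor, had signals of 191.2 (rank 712) in replicate 1 and 198.2 (rank 655) in replicate 3. An intergenic peak 19092 bp downstream of the start of lgs, the gene of the Wnt coactivator legless, and 1248 bp from another annotated start site, had signals of 158.6 (rank 1005) and 251.6 (rank 424). In an intron of Sox102F, a SoxD-type factor, the signals were 123.5 (rank 1492) and 118.8 (rank 1504). For PlexA, zfh2 and lgs the rank was better in replicate 3, and for gw and Sox102F it was better in replicate 1.

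The remaining reproducible peaks of chromosome 4 were weaker and less even. At RpS3A, a ribosomal protein gene, the signal was 72.8 in replicate 1 (rank 3228) and 127.2 in replicate 3 (rank 1361), 38 and 104 bp before the start. At Asator, a tubulin-binding kinase, it was 119.4 (rank 1579) and 60.9 (rank 3572), with the summits 253 bp apart. The peak 4528 bp before fuss, a Ski/Sno family factor, had 92.9 and 79.2. At the apolpp and Zyx genes, which code for apolipophorin and the focal adhesion protein zyxin, 1 peak had 77.1 and 47.2. The peak 3429 bp before ci, the transcription factor of Hedgehog signalling, lay in an intron of a noncoding gene and had 97.1 in replicate 1 but 29.4 (rank 8698) in replicate 3, with summits 315 bp apart. A further replicate 3 peak, with a signal of 26.5 (rank 10219), had its summit nearer, 3359 bp before ci. A peak between genes, nearest to the zinc-finger gene dati, had 56.7 and 54.9. At Pur-alpha, a nucleic-acid-binding protein, the signal was 97.9 in replicate 1 (rank 2117) with no overlapping replicate 3 peak. Of the 13 reproducible peaks, 13 overlapped a replicate 1 peak and 12 a replicate 3 peak, and on the other arms 99.1% and 99.3% did.

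Of the members of high signal outside the reproducible list, several had no replicate 3 partner. A peak in the 5′ untranslated region of CG31999, 102 bp from a start, had a signal of 80.6 (rank 2810). A peak 96 bp before a start of Mitf, a basic helix-loop-helix leucine zipper factor, had 70.5 (rank 3378). Neither overlapped a replicate 3 peak. A second Asator peak, 548 bp before a start, had 78.9 in replicate 1 and 35.2 (rank 6835) in replicate 3. The INE-1 peak in PMCA, a plasma membrane calcium pump, had 60.2 (rank 4280) and no replicate 3 partner.

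By annotation, the members lay in introns (42.5%, 95% interval 38.3 to 46.8), between genes (24.3%, 20.7 to 28.1) and in coding exons (17.4%, 14.2 to 20.8), with 7.46% in 5′ and 6.53% in 3′ untranslated regions and 1.87% in noncoding exons. Introns make up 45.5% of the chromosome, intergenic sequence 21.3% and coding exons 20.0%. The replicate 3 peaks lay in introns for 40.7%, between genes for 37.2% (30.0 to 44.9) and in coding exons for 11.0% (6.78 to 16.7). The coding share of the members was above that of the other arms (8.78 to 12.8%), and the intron share was below it (47.2 to 54.2%). The ratio of replicate 1 to replicate 3 summits was 4.89 in coding exons (93 and 19), 3.26 in introns (228 and 70) and 2.03 between genes (130 and 64). In 3′ and 5′ untranslated regions it was 7.0 (35 and 5) and 6.67 (40 and 6), and in noncoding exons 1.25 (10 and 8). On the other arms the ratios were 1.36 in coding exons, 0.980 in introns, 0.757 between genes, 1.82 and 1.54 in 3′ and 5′ untranslated regions and 0.956 in noncoding exons.

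**Figure D4:**
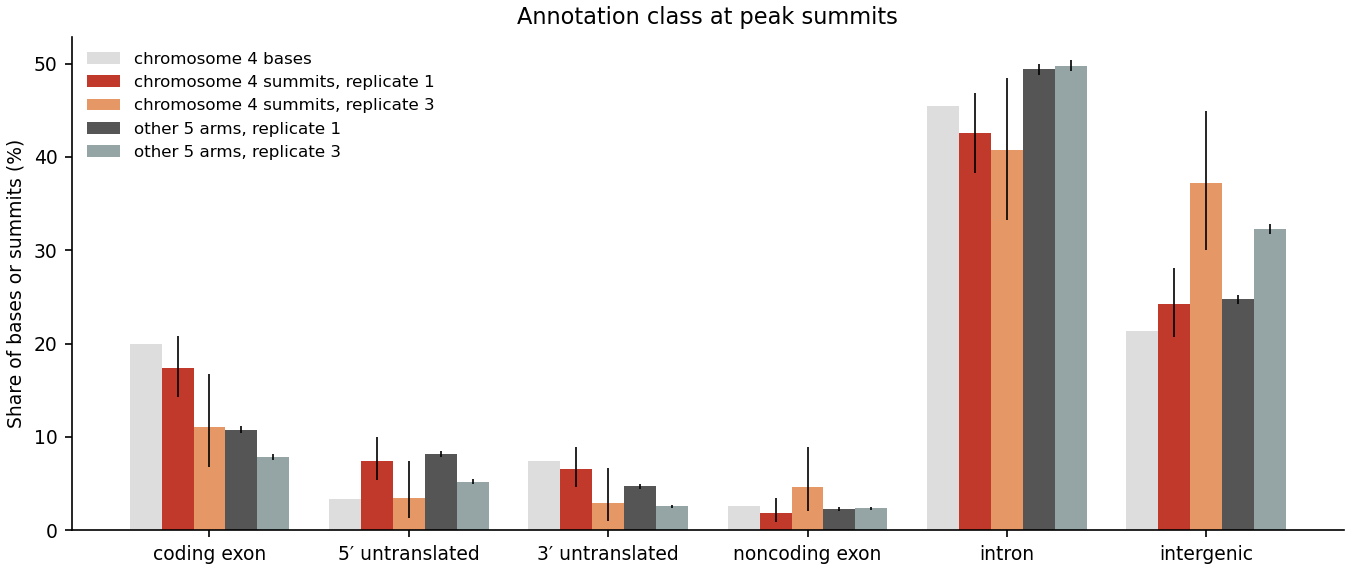
Share of chromosome 4 bases (light grey) and of peak summits (vertical axis, percent) in each annotation class (horizontal axis) for chromosome 4 (red, orange) and the other 5 arms (dark and mid grey) in replicates 1 and 3, with exact 95% intervals. The replicate 1 summits of chromosome 4 fall in coding exons for 17.4% and between genes for 24.3%, near the shares of the chromosome's bases.

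Shared and unshared members differed in place. The 103 members that overlapped a replicate 3 peak lay between genes in 42.7% (95% interval 33.0 to 52.8) and in coding exons in 6.80% (2.78 to 13.5). For the 433 that did not, the shares were 19.9% (16.2 to 23.9) and 19.9% (16.2 to 23.9). The same split on the other arms gave 30.2% between genes and 4.03% in coding exons for shared peaks, and 18.7% and 18.3% for unshared ones. Other measures of the unshared members differed from those of the other arms: 32.1% (95% interval 27.7 to 36.7) lay within 1000 bp of a start, against 44.1%, and 15.5% in transposable elements, against 0.554%. The difference in elements was not particular to unshared members, since 11.7% of the shared members lay in them, against 0.366% of shared peaks on the other arms. Near starts lay 46.6% of the shared members (36.7 to 56.7), against 47.4%. None of the 16 members ranked within the best 3917 had its summit in a coding exon (95% upper bound 20.6%).

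Fewer of the members lay near start sites than on the other arms. Summits within 1000 bp of any annotated start made up 34.9% in replicate 1 (95% interval 30.9 to 39.1), against 42.4 to 51.9% on the other arms, and 38.4% in replicate 3 (31.1 to 46.1), against 33.6 to 42.5%. Sequence that close to a start made up 18.8% of chromosome 4 and 22.3 to 25.9% of the other arms. The share was highest among the strongest members, at 10 of 16 (62.5%) for ranks up to 3917 and 53.2% for ranks 3918 to 10000, and it was 31.4% and 26.5% in the lower bands. Within 200 bp of a protein-coding start lay 53 members (9.89%) and 26 replicate 3 peaks (15.1%), and 24 of those 26 overlapped a replicate 1 peak.

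Base composition and forkhead words at the summits were close to those of the chromosome. Mean GC content in the 201 bp around the summit was 35.0% ± 6.25 (SD over the 536 members) in replicate 1 and 35.7% ± 5.95 (SD over 172 peaks) in replicate 3, beside 35.2% for chromosome 4 as a whole. Summits on the other arms had means of 39.5 to 41.3% in replicate 1. A forkhead word stood in 275 members (51.3%, 95% interval 47.0 to 55.6), in 75 replicate 3 peaks (43.6%, 36.1 to 51.4) and in 6 of the 13 reproducible peaks. Of all 6621 windows of 201 bp that tile chromosome 4, 48.1% held such a word, so the interval of each replicate takes in the share of the tiles. On the other arms 50% of replicate 1 summits held one, where the tiles gave 39.2 to 41.5%, so the summits there stood above their tiles. TGTTTAC, a stricter word read on both strands and a part of the set above, was in 24 members (4.48%) and in 4.41% of the tiles. TATCGATA, the DRE, was in 11 members (2.05%), in 1.98% of the chromosome 4 tiles and in 0.467 to 0.706% of the tiles elsewhere. A word is a match of letters and does not show binding.

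Nearly all genes of chromosome 4 had a start-site peak when the whole replicate 1 list was used. Among its 3917 best peaks, 11 of 80 protein-coding genes had one (13.8%, 95% interval 7.07 to 23.3), against 17.9 to 21.9% on the other arms. Over the whole lists, a summit lay within 1000 bp of a start in 73 genes in replicate 1 (91.2%, 95% interval 82.8 to 96.4). This compares with 60.1% of all protein-coding genes and 57.6 to 61.8% on the other arms. In replicate 3 it was 43 genes (53.8%, 42.2 to 65.0), near the 56.2% of all genes, and in the reproducible list 9 genes (11.2%, 5.28 to 20.3), against 20.8% of all. In both replicates 40 genes had such a peak (50%, against 45.7% of all genes), in replicate 1 alone 33 (41.2%, against 14.4%) and in replicate 3 alone 3 (3.75%, against 10.5%). The 3 were CG11155, CG1674 and yellow-h, and the 4 genes with none in either replicate were Rnf11, Zip102B, sv and toy. Genes with a start-site peak in both replicates had better replicate 1 ranks (median 5899) than those with it in replicate 1 alone (median 10898).

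**Figure D5:**
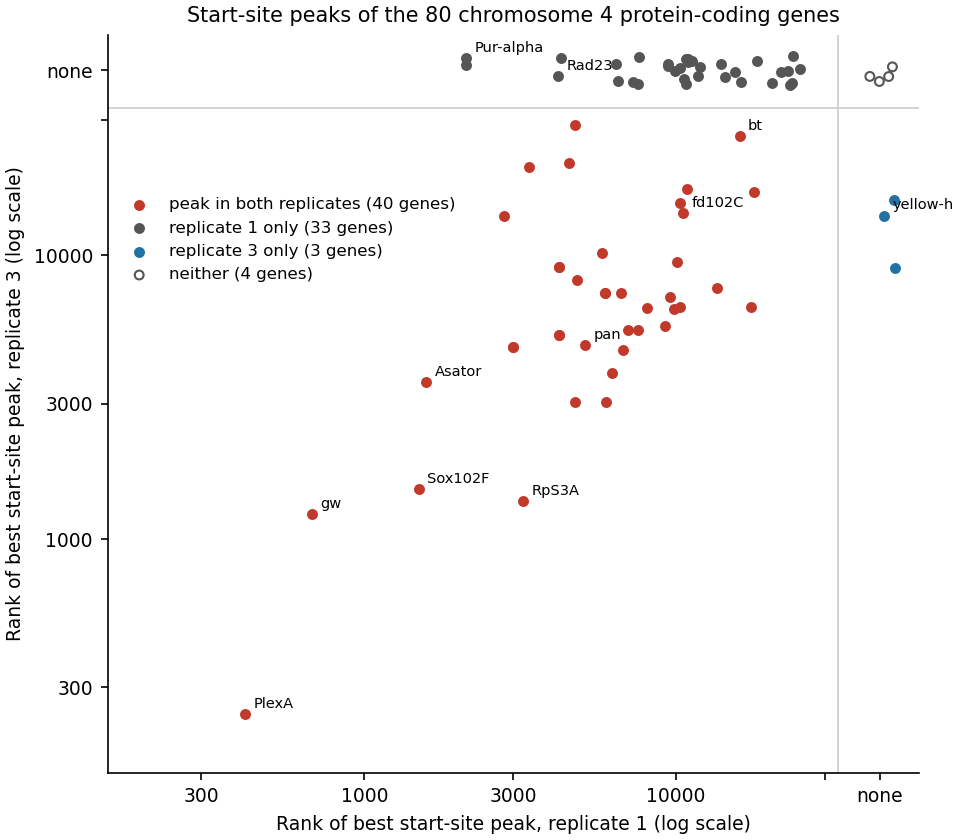
Rank of the highest-signal peak within 1000 bp of a start site in replicate 1 (horizontal axis, log scale) and replicate 3 (vertical axis, log scale) for the 80 protein-coding genes of chromosome 4, with genes lacking such a peak placed at "none" with a small random offset. PlexA, gw, Sox102F and RpS3A lie at the lower left, and 33 genes with a replicate 1 peak alone lie along the top.

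Of 13 developmental transcription factor genes, 11 had a start-site peak in replicate 1, 6 in replicate 3 and 1, Sox102F, in the reproducible list, beside 73, 43 and 9 of the 80 genes of the chromosome. The start of pan, the TCF factor of Wnt signalling, had a signal of 53.7 in replicate 1 (rank 5106) and 46.6 in replicate 3 (rank 4829). The start of ey, the Pax6 gene of eye development, had 48.6 (rank 5966) and 69.3 (rank 3056). That of ci had 49.4 (rank 5803) and 26.6 (rank 10200). The starts of zfh2, fuss, dati, pho and onecut had peaks in replicate 1 alone, ranked 22776, 25046, 20378, 6417 and 23642. At fd102C, a forkhead gene itself, the ranks were 10519 and 14102. Inside the gene, Sox102F held 9 replicate 1 and 10 replicate 3 summits, fuss 6 and 6, ey 4 and 6, sv 6 and 5, zfh2 10 and 5, toy 6 and 2, dati 5 and 1, ci 5 and 3, fd102C 2 and 2, pan 22 and 2, Mitf 8 and 0, pho 2 and 0, and onecut 0 and 0. Together the 13 genes held 85 and 42, where 387 and 97 summits of the chromosome lay inside protein-coding genes, a ratio of 3.99. No test of a difference between genes was made.

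Genes of signalling and axon guidance had start-site peaks in 8 of 8 cases in replicate 1, in 4 in replicate 3 and in 1, PlexA, in the reproducible list. Of all 80 genes of the chromosome, 73, 43 and 9 had one. After PlexA the best were myo, a TGF-beta family ligand, with signals of 56.2 (rank 4744) in replicate 1 and 69.3 (rank 3056) in replicate 3, and lgs with 45.1 (rank 6759) and 48.0 (rank 4653). The replicate 3 value of myo and that of ey come from the same peak between the genes. PlexB, another semaphorin receptor, had ranks of 9213 and 5661. Eph and Ephrin, a receptor and its ligand, the activin Actbeta and the adaptor Crk had a start-site peak in replicate 1 alone, ranked 10739 to 11972. The 8 genes held 32 summits in replicate 1 and 5 in replicate 3, beside 387 and 97 inside all protein-coding genes of the chromosome.

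Genes of synapse and neuronal membrane had start-site peaks in 6 of 6 cases in replicate 1, in 2 in replicate 3 and in none in the reproducible list. Of all 80 genes of the chromosome, 73, 43 and 9 had one. The 2 in replicate 3 were Ekar, a kainate-type glutamate receptor, ranked 4749 and 28953, and the kinase CaMKI, ranked 4822 and 8210. At unc-13, which primes synaptic vesicles, mGluR, a metabotropic glutamate receptor, Cadps and Syt7, both of vesicle exocytosis, the ranks ran from 9442 to 21690 in replicate 1. The 6 genes held 41 summits in replicate 1 and 6 in replicate 3, beside 387 and 97 inside all protein-coding genes of the chromosome. The gene unc-13 alone had 14 and 0.

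Genes of general cellular function had start-site peaks in 12 of 12 cases in replicate 1 and 6 in replicate 3. Among all 80 genes of the chromosome the numbers were 73 and 43. The general genes made up 5 of the 9 genes with a start-site peak in the reproducible list: RpS3A, gw, Asator, Pur-alpha and Tdg. The Pur-alpha peak lies within 1000 bp of a start of Tdg as well, the thymine DNA glycosylase gene, so these count 1 peak. ATPsynbeta, a subunit of the mitochondrial ATP synthase, had 60.8 (rank 4224) and 43.3 (rank 5263). Rad23, of nucleotide excision repair, had 61.1 (rank 4193) in replicate 1 and no start-site peak in replicate 3, and eIF4G1, of translation initiation, and Hcf, a transcription cofactor, also had none there. The mediator subunit MED26 held 5 summits in each replicate. The 12 genes together held 53 and 11, beside 387 and 97 inside all protein-coding genes of the chromosome. The muscle gene bt, which codes for the giant protein projectin, had start-site ranks of 15986 and 26274, and 10 and 2 summits inside.

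Within gene bodies the replicate difference was uneven. In replicate 1, 77 of the 80 genes held at least 1 summit and in replicate 3 36 did. The number was higher in replicate 1 for 70 genes, equal and above 0 for 5 (MED26, fd102C, fuss, CG11076 and Kif3C) and higher in replicate 3 for 3 (Sox102F, ey and yellow-h). Of 39 genes with 5 or more replicate 1 summits, 15 had none in replicate 3, among them PMCA with 15, unc-13 with 14, anne with 10, and CaMKII and NfI with 9 each. Those 15 were found after their values were seen. The peak counts of overlapping genes include shared summits, and no test was made of the difference between genes.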

How the data were processed

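The narrowPeak lists were used as deposited: 1 for each replicate, 1 called on both replicates over a control alignment, and 1 of IDR-selected peaks, on build dm6, per the file headers and deposited descriptions. Caller, aligner and IDR threshold: not given in the sources used here. Each deposited peak signal is the authors' value relative to the control, on the scale of its own list. The −log10 q-value deposited by the authors was used only as a threshold of q ≤ 0.05. Read counts were not used here, so depth is unknown.

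Peak positions were set against the Release 6 genome and the Ensembl 115 annotation (FlyBase 6.54). A summit took the first class that held it: coding exon, 5′ or 3′ untranslated region, noncoding exon, intron, intergenic. Transposable elements were the annotated insertions. Overlap meant at least 1 bp, and a start-site peak a summit within 1000 bp of an annotated start. Shares have exact Clopper-Pearson 95% intervals for counting error only, and peaks of 1 library are not replicates, so no test was made. The members, gene lists and comparisons were chosen with earlier results of these data known. Genes named were those at the 15 strongest members, at the reproducible peaks and in 5 lists, whose 41 names gave 40 genes. Any other gene was named for its values, after they were seen. Sequence was printed for up to 6 shared members and, added after seeing the data, for the Pur-alpha and PMCA peaks, with none from untranslated regions. The tools were scipy 1.17.1, pandas 2.3.3, numpy 2.4.6 and, for plots, matplotlib 3.10.9, under Python 3.11.15, and the interval functions were tested on simulated data.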

Additional observations from a re-analysis of the deposited data

How the results depend on the processing

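The main values for chromosome 4 were those of the replicate 1 list. Without replicate 1, the replicate 3 list gave 127.6 peaks per Mb in place of 397.6, 38.4% of summits near a start (34.9%), 40.7% in introns (42.5%), 37.2% between genes (24.3%), 43 genes with a start-site peak (73), 43.6% of windows with a forkhead word (51.3%), a GC content of 35.7% (35.0%), 25.6% in soft-masked sequence (23.9%) and a median rank of 15288 (17000). The overlap needs both replicates: the share of replicate 3 peaks that overlap a replicate 1 peak, a different quantity, was 59.3%, beside 19.2% of the members. Replicate 1 alone gave the main values, so leaving out replicate 3 changes none of them, apart from the overlap. With peaks of q ≤ 0.05 the density was 122.4 per Mb, the start share 50.9%, the intron share 44.2% and the median rank 8228. With the 3917 best peaks the density was 11.9 per Mb, the overlap 56.2%, and the shares were 62.5% near starts, 50% in introns, 37.5% between genes, 43.8% with a forkhead word and 31.2% soft-masked, with 11 genes and a GC content of 34.4%. Windows of 500 and 2000 bp, and protein-coding starts alone, gave start shares of 22.2%, 50.4% and 32.3%. Counting any intron gave 47.9%. Motif windows of 50 and 250 bp to each side gave 30.0% and 79.5%, the strict word 4.48%, GC within 250 bp 34.3%, and the soft-masked share of peak bases 26.3%. The ratio of replicate 1 to replicate 3 peaks, in alternatives chosen after seeing the data, was 1.45 and 2.60 for the best 3917 and 10000 peaks and 2.03 between genes, in place of 3.12. Of 46 alternatives to these values, 14 moved a value by less than the SD between the replicates (for gene counts, by less than 1.5 times), and 3 of 6 alternatives to the ratio stayed within its 95% interval. Leaving out replicate 1 could only count as a move under this rule, gene counts apart, because the SD comes from the same 2 values. The tally of 14 is therefore no measure of how stable the values are. The cause of the moves was not tested.

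With 2 replicates and unknown depth, counting intervals understate the error of each share. The control's data were not used here. No paired analysis was possible because there is 1 group.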
